A study of Drosophila melanogaster with 9 samples.

Results

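The Y chromosome of Drosophila melanogaster carries a small set of protein-coding genes that are needed to make sperm, and 10 of them were followed here across larval densities: kl-2, kl-3, kl-5, ORY, CCY, WDY, Ppr-Y, Pp1-Y2, ARY and PRY. They were taken by name from the 17759 rows of the deposited table, where each has 1 row placed on chromosome Y, and a further 103 rows lie on the same chromosome. All 10 passed the filter on low counts that left 12883 genes for testing. roX1, an X-linked RNA made in males, was set beside them.

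Each library was made from 10 pooled whole larvae of the third instar, taken while wandering in search of a place to pupariate, after growth on a diet of sugar and yeast. The densities were 5 eggs per ml of diet (low), 60 eggs (medium) and 300 eggs (high), with 3 pools each, to ask what crowding changes in the transcriptome. The labels name neither a strain, nor a genetic alteration, nor the sex of the larvae, and do not say whether the pools of 1 density came from separate cultures. The p-values therefore measure the spread between these pools, which may be in part technical.

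Males without a Y chromosome are viable but sterile. In the testis the Y-linked fertility genes are transcribed in primary spermatocytes, the large germ cells that grow for days before meiosis, and these are the most advanced germ cells of a wandering larva. kl-3, kl-5 and ORY form the lampbrush-like Y loops seen in those nuclei, since their introns are filled with satellite repeats and reach an enormous size. The protein products are used later, above all in the axoneme, the motile core of the sperm tail. roX1, by contrast, coats the male X chromosome in somatic cells as part of the dosage compensation complex, so it marks male RNA without marking the germ line.

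The gene models showed the contrast between giant and compact members (coordinates of the deposited table, Release 6 assembly, chromosome Y). Among the axonemal dynein heavy chains, the motor subunits of the sperm tail, kl-5 (22250 to 137486, minus strand) joined 17 exon blocks of 13680 bases in all, so that 11.9% of its span was exonic. kl-3 (336381 to 563165, plus strand) had 13882 exonic bases in a span of 226785 and a longest intron of 120259 bases. kl-2 (573088 to 664173, plus strand) had 13386 exonic bases. All the dynein genes are thus long in both exons and introns.

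ORY (3561745 to 3618339, plus strand), a gene named for a relation to occludin and assigned to the fertility factor ks-1, had 2745 exonic bases. CCY (3649996 to 3666928, plus strand), a coiled-coil gene, had 4002, and WDY (2273422 to 2487777, plus strand), which codes for a protein with WD40 repeats, had 3394 exonic bases in a span of 214356. Ppr-Y (1636574 to 1884846, plus strand), named as a protein phosphatase relative, had the widest span of the 10, 248273 bases, and 0.689% of it was exonic. Apart from CCY, with a span of 16933 bases that was 23.6% exonic, these are small messages spread over long loci.

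The compact members were Pp1-Y2 (3539437 to 3540722, minus strand), a catalytic subunit of protein phosphatase type 1 in a single exon, and ARY (702430 to 704048, plus strand), an aldehyde reductase gene whose longest intron was 61 bases. PRY (146092 to 192020, minus strand), a polycystin-related gene, had 3744 exonic bases in 3 blocks. The assembly of chromosome Y has gaps in its repeats, so the long spans are lower bounds.

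Depth was similar across pools: deposited counts summed to between 16822606 (high replicate 2) and 25141308 (high replicate 3) per library, and a count of 3 was worth between 0.106 and 0.156 CPM, the count per 1000000 of the TMM-scaled library size. No pair of replicate pools agreed within sampling noise, with a chi-square per degree of freedom between 16.2 and 185.3, the highest between high replicates 1 and 3. Marker genes of salivary gland, fat body, muscle and midgut were all detected in all 9 libraries, as were those of early germ cells and of gonadal somatic cells. No list of markers of a tissue had a gene at 0 throughout.

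The fertility genes were all weakly expressed in whole larvae, and they moved together between pools. The 10 genes summed to 28.6, 37.3 and 24.7 CPM in the low-density libraries, to 13.9, 19.7 and 9.14 CPM at medium density, and to 28.7, 50.2 and 68.6 CPM at high density. The medium pools were thus the lowest 3 of the 9, and 2 of the 3 high pools were above every low pool while high replicate 1 was not. In whole-larva RNA, fewer cells that transcribe a gene, fewer males in the pool and less RNA per cell cannot be told apart.

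**Figure D1:**
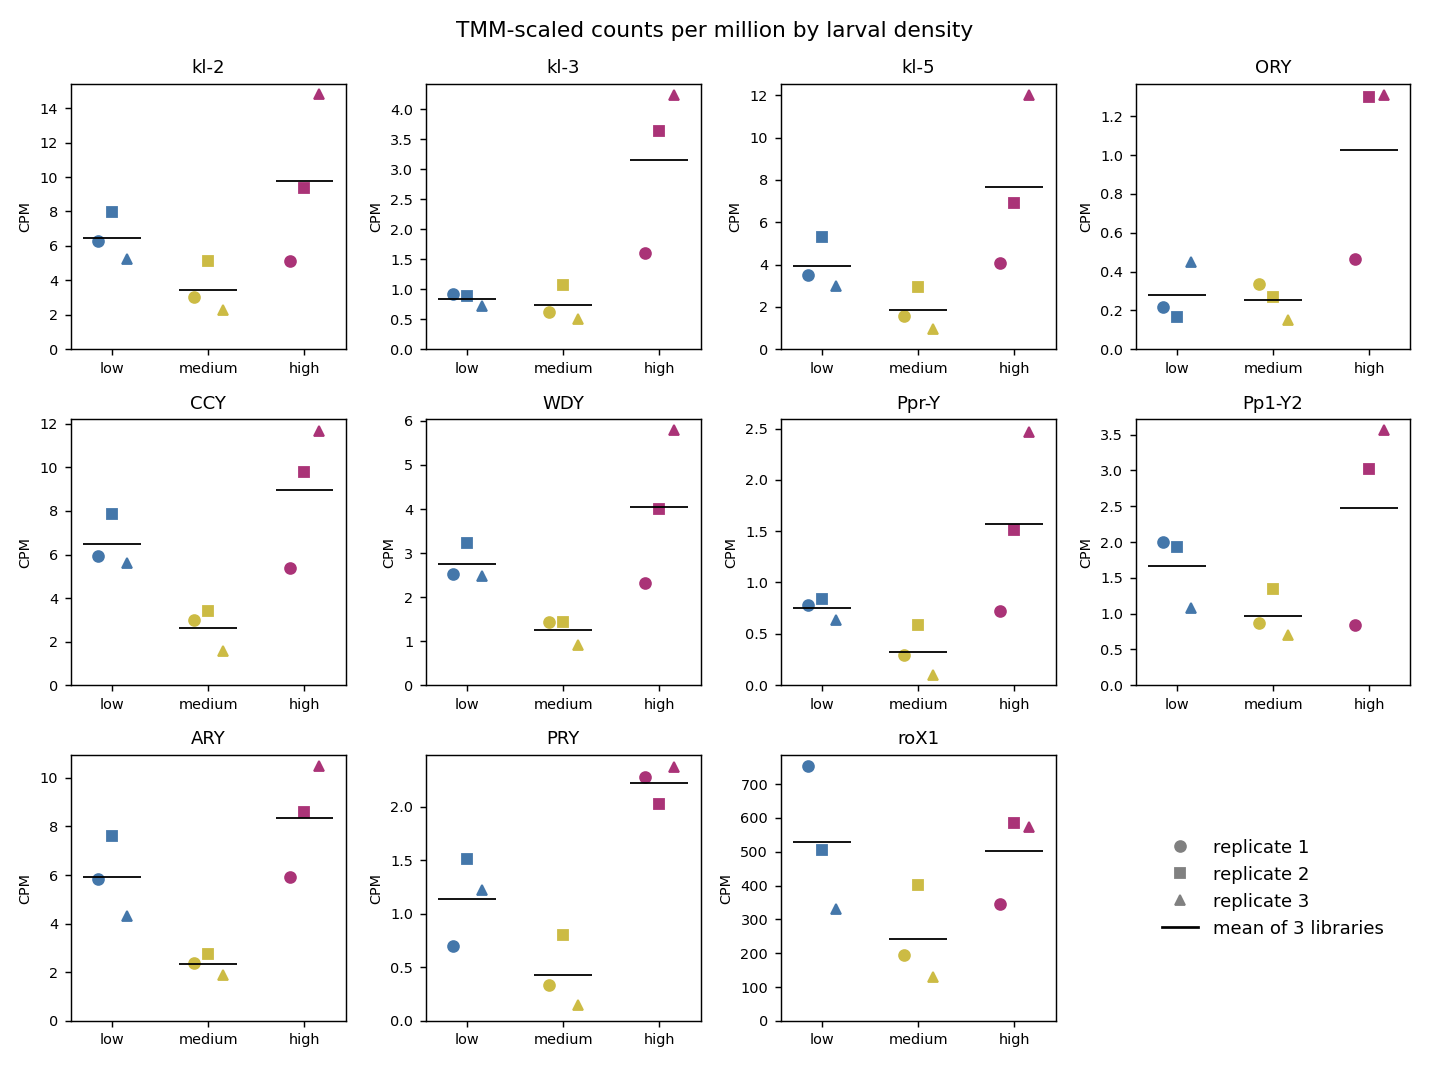
TMM-scaled CPM of the 10 Y-linked genes and roX1 in each library, by larval density (points: single pools, shape by replicate number; line: mean of 3). The medium mean is the lowest of the 3 in every panel, and high replicate 3 is the highest high-density pool for all 10 Y-linked genes.

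The plot of CPM by density shows how alike the members were in their order within a density. High replicate 3 was the highest high-density pool for 10 of 10 genes and high replicate 1 the lowest for 9, the exception being PRY. Medium replicate 3 was the lowest medium pool for all 10, and medium replicate 2 the highest for 8. At low density, replicate 2 was the highest for 7 and replicate 3 the lowest for 8. roX1 did not follow that order at low density, where replicate 1 had the most (754 CPM). The sperm genes described below did, summing to 1434, 1704 and 1285 CPM at low density. They had 658, 971 and 427 CPM at medium and 1197, 2146 and 2666 CPM at high density. Over the high pools summed salivary gland markers ran the other way, at 35674, 26312 and 20128 CPM. Muscle markers did too, at 4455, 3340 and 1698 CPM. The share of all genes with the members' order is not given here, and what sets that order was not tested.

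Among the dynein heavy chains, kl-3 codes for an outer-arm motor. It had 0.913, 0.88 and 0.722 CPM in the low-density libraries, 0.625, 1.07 and 0.499 CPM at medium density, and 1.6, 3.64 and 4.24 CPM at high density. Every high pool was above every other pool, while low and medium overlapped. The counts behind these values were between 10 (medium replicate 3) and 120 (high replicate 3).

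kl-5, the other outer-arm dynein, had 3.52, 5.28 and 2.98 CPM at low density, 1.59, 2.95 and 0.949 CPM at medium density, and 4.09, 6.92 and 12 CPM at high density. Here the lowest high pool lay inside the low range, and medium lay below both. kl-2, an inner-arm dynein, had 6.26, 7.96 and 5.23 CPM at low density, 3.03, 5.1 and 2.25 CPM at medium density, and 5.11, 9.37 and 14.8 CPM at high density. Its lowest high pool stood below the low range and just above the highest medium pool.

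ORY was close to the detection limit, with 5, 4 and 10 counts in the low-density libraries, 7, 6 and 3 at medium density, and 11, 25 and 37 at high density. In CPM these were 0.217, 0.168 and 0.451 at low density, 0.336, 0.268 and 0.15 at medium density, and 0.464, 1.3 and 1.31 at high density. High replicate 1 stood above the highest low library by a margin of 1 count, which is well within counting error. The exact Poisson 95% interval of the lowest value, 3 counts, is 0.619 to 8.77, and that of the highest, 37 counts, is 26.1 to 51.

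CCY had 5.91, 7.87 and 5.6 CPM at low density, 2.98, 3.4 and 1.55 CPM at medium density, and 5.4, 9.78 and 11.7 CPM at high density. WDY had 2.52, 3.23 and 2.48 CPM at low density, 1.44, 1.43 and 0.899 CPM at medium density, and 2.32, 4.01 and 5.79 CPM at high density. Medium did not overlap with either other density in these genes, and low and high did overlap.

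Ppr-Y had 0.782, 0.838 and 0.632 CPM at low density, 0.288, 0.581 and 0.0999 CPM at medium density, and 0.717, 1.51 and 2.47 CPM at high density. Pp1-Y2 had 2, 1.93 and 1.08 CPM at low density, 0.865, 1.34 and 0.699 CPM at medium density, and 0.844, 3.02 and 3.57 CPM at high density. The phosphatase catalytic gene was the only member whose high range overlapped its medium range. In Ppr-Y medium replicate 3 was under the value of 3 counts. Its deposited 2.5 counts were rounded to 2 for the CPM and the tests, a change of 20%.

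ARY had 5.82, 7.62 and 4.33 CPM at low density, 2.4, 2.77 and 1.9 CPM at medium density, and 5.91, 8.59 and 10.5 CPM at high density. PRY had 0.695, 1.51 and 1.22 CPM at low density, 0.336, 0.805 and 0.15 CPM at medium density, and 2.28, 2.03 and 2.37 CPM at high density. The high pools of PRY were tightly grouped and above all others, and those of ARY were spread over the low range and beyond. PRY was the member whose high pools did not have replicate 1 at the bottom.

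Per kilobase of exon, which makes levels of different genes comparable, ARY was first and kl-3 last at every density. In mean CPM per kb, ARY had 4.26 at low, 1.69 at medium and 5.97 at high density, and its pools did not overlap with those of the next gene at any density. CCY had 1.61, 0.66 and 2.24 CPM per kb in the same order, and Pp1-Y2 had 1.3, 0.753 and 1.93. Those places were exchanged at medium density, where CCY and Pp1-Y2 overlapped, as they did at the other densities.

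WDY followed with 0.808, 0.37 and 1.19 CPM per kb at low, medium and high density, kl-2 with 0.484, 0.258 and 0.729, Ppr-Y with 0.439, 0.189 and 0.916, and PRY with 0.305, 0.115 and 0.594. The Y-loop genes stood low in the order. kl-5 had 0.287, 0.134 and 0.56, ORY had 0.102, 0.0916 and 0.373, and kl-3 had 0.0604, 0.0528 and 0.228. Apart from ARY and the gene after it, the only neighbours in the order with separate ranges were WDY above kl-2 and kl-5 above ORY, both at low density. The libraries were made from poly(A) RNA, and how evenly reads cover messages as long as the dynein ones was not tested.

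**Figure D2:**
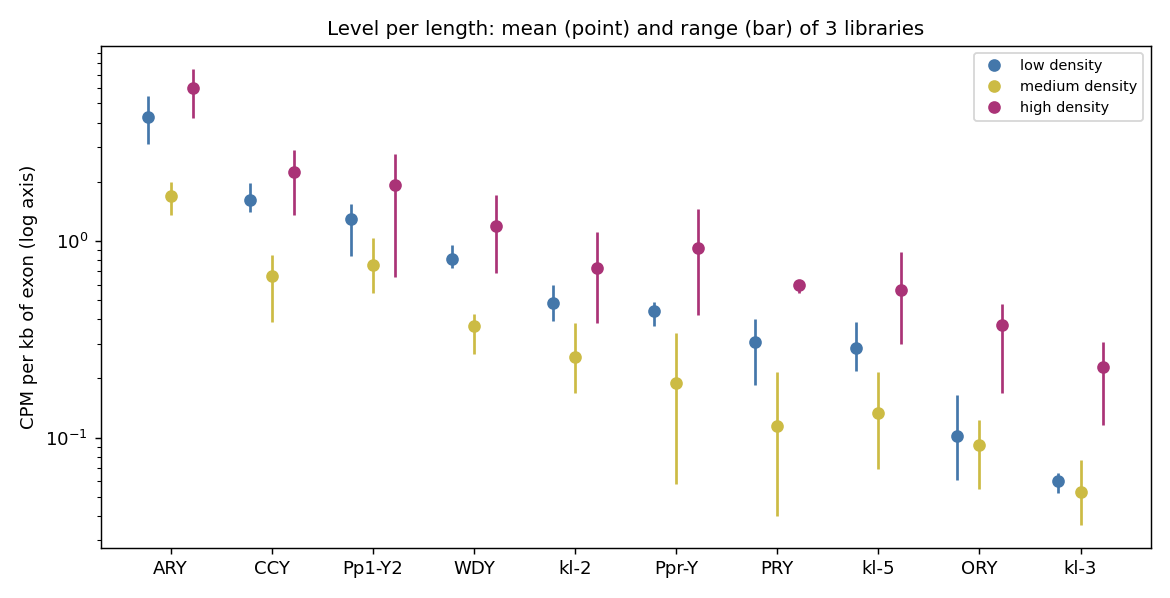
Level of each Y-linked gene per kilobase of exon (CPM per kb, log axis) at low, medium and high density, as the mean (point) and range (bar) of 3 libraries. ARY is highest and kl-3 lowest at all densities, and the middle of the order overlaps.

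High against low density sets the most crowded larvae beside the least crowded. By edgeR's quasi-likelihood test 2 of the 10 members differed, kl-3 and ORY, both higher at high density, where 4.18% of all genes tested were called higher. The mean of kl-3 was 3.16 ± 1.38 CPM at high density, against 0.838 ± 0.102 CPM at low density (mean ± SD of 3 pools, as throughout). Its log2 fold change was 1.91 ± 0.41 (SE), or 3.75-fold, with an edgeR adjusted p of 0.0189. ORY had 1.02 ± 0.485 CPM at high density, against 0.279 ± 0.152 CPM at low density, and its log2 fold change was 1.87 ± 0.53, with an edgeR adjusted p of 0.0482.

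The other 8 members did not pass, although their log2 fold changes were also above 0. They were 1.06 ± 0.54 for Ppr-Y, 0.97 ± 0.48 for kl-5, 0.96 ± 0.45 for PRY, and between 0.47 (CCY) and 0.59 (kl-2) for the rest, with edgeR adjusted p between 0.199 (PRY) and 0.471 (Pp1-Y2). The median over the 10 was 0.78, beside 0.06 over all genes tested. High and low pools did not overlap in 3 members (kl-3, ORY and PRY), all higher at high density, where 13.4% of all genes had such a separation. roX1 had 346, 585 and 574 CPM at high density, against 754, 506 and 330 CPM at low density, a log2 fold change of -0.08 ± 0.44 (edgeR adjusted p 0.918). Markers of other tissues were called in the same comparison, 4 of 6 for salivary gland (1 higher and 3 lower), 2 of 6 for fat body (Fbp1 and Fbp2, lower, at log2 fold changes of -0.76 and -0.91), 1 of 4 for muscle (Mhc, higher) and 1 of 3 for midgut (Amy-p, higher, at 1.69). The salivary gland markers summed to between 20128 and 35674 CPM at high and between 39283 and 44988 CPM at low density, and the muscle markers to between 1698 and 4455 CPM at high and between 1405 and 1920 CPM at low density. With single pools left out, the call of Fbp1 was lost in 6 of 9 fits, and those of Mhc and Amy-p in 5 each. That of the salivary gland gene Sgs7 was lost in 4, and those of Fbp2, Sgs1 and Sgs8 held in all. The part of these markers in the calls of kl-3 and ORY was not tested.

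Both calls depended on single pools. The adjusted p of kl-3 was 0.069, 0.0661 and 0.0714 without low replicate 1, 2 and 3, and 0.0633 without high replicate 2, at log2 fold changes between 1.79 and 1.97. For ORY, 15 of 20 alternatives ended the call, including all fits with 1 pool left out except that without high replicate 1. The adjusted p of ORY in those fits lay between 0.0566 (without low replicate 3) and 0.165 (without low replicate 1).

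Medium density had less of every member than low density in mean CPM, but the edgeR test called none of them, nor any other of the 12883 genes. The lowest p-values were those of ARY and CCY. ARY had 2.36 ± 0.439 CPM at medium density, against 5.93 ± 1.65 CPM at low density (log2 fold change -1.33 ± 0.29, edgeR adjusted p 0.13). CCY had 2.64 ± 0.97 CPM at medium density, against 6.46 ± 1.24 CPM at low density (log2 fold change -1.29 ± 0.36, edgeR adjusted p 0.13). At an unadjusted p under 0.05 there were 4 members, these and WDY and PRY, all lower at medium density, as were 17.5% of all genes tested. The members' median log2 fold change was -1.11, beside 0.02 over all genes.

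Medium pools lay below all low pools in 6 members, where 22.2% of all genes did so. kl-3 and ORY, the members called between high and low, were nearest to no change between medium and low, at log2 fold changes of -0.19 and -0.13. DESeq2 called 3 members lower at medium density (ARY, CCY and WDY), and 1575 genes in all, and limma voom called none. Without medium replicate 2, the medium pool with the most roX1 (402 CPM), edgeR called ARY and PRY, and 1094 genes, with an adjusted p of 0.0482 for ARY, for PRY and for roX1. roX1 had 196, 402 and 131 CPM at medium density, against 754, 506 and 330 CPM at low density, and its log2 fold change of -1.13 ± 0.45 (edgeR adjusted p 0.167) stood beside the members' median of -1.11.

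High density exceeded medium density in 9 of the 10 members by the edgeR test, where 21.3% of all genes were called higher. The exception was Pp1-Y2, at 1.35 ± 0.53 on the log2 scale (edgeR adjusted p 0.0742). Pools of high and medium density did not overlap in the same 9 members, as in 24.9% of all genes tested. The members' median log2 fold change was 1.9, beside 0.01 over all genes. In the same comparison 5 of 6 salivary gland markers were lower at high density, summing to between 20128 and 35674 CPM at high and between 39021 and 47804 CPM at medium density. Of the 6 fat body markers 2 were lower (Fbp1 and Fbp2), and the list summed to between 39321 and 62088 CPM at high and between 56027 and 88721 CPM at medium density. The call of Fbp1 was lost without medium replicate 1 or high replicate 2 (edgeR adjusted p up to 0.0503). The part of these tissues in the members' calls was not tested.

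Of the dyneins, kl-3 was 4.27-fold higher at high than at medium density (log2 fold change 2.09 ± 0.42, edgeR adjusted p 0.00924). kl-5 averaged 7.66 ± 3.99 CPM at high and 1.83 ± 1.02 CPM at medium density, 4.17-fold apart (edgeR adjusted p 0.0147). kl-2 averaged 9.76 ± 4.86 CPM at high and 3.46 ± 1.47 CPM at medium density, 2.82-fold apart (edgeR adjusted p 0.0238). The inner-arm dynein thus had the smallest change of the 9 genes called in this fit.

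PRY had the largest in this fit, 5.05-fold, averaging 2.22 ± 0.175 CPM at high and 0.43 ± 0.337 CPM at medium density (edgeR adjusted p 0.0108). Its log2 fold change of 2.34 became 3.16 without medium replicate 2, and 2.32 without high replicate 1, where Ppr-Y (2.59), kl-3 (2.41), kl-5 (2.36) and ORY (2.34) stood above it. Ppr-Y was 4.74-fold higher (log2 fold change 2.25, and 2.97 without medium replicate 2, edgeR adjusted p 0.0191), ORY 3.99-fold (0.021), ARY 3.52-fold (0.00487), CCY 3.37-fold (0.00961) and WDY 3.21-fold higher (0.0103). The medium means of Ppr-Y, PRY and ORY rest on few counts, with a medium replicate 3 at or under 3 counts in each. roX1 had 346, 585 and 574 CPM at high density, against 196, 402 and 131 CPM at medium density (log2 fold change 1.05 ± 0.45, edgeR adjusted p 0.0933), and was called without medium replicate 2 (0.0164) and with DESeq2 (0.0452).

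ARY, CCY, WDY, PRY and kl-3 kept their call whichever pool was left out. The others did not: without medium replicate 1 the count fell to 5, with adjusted p of 0.0561 for kl-5, 0.0804 for kl-2, 0.0677 for Ppr-Y and 0.0519 for ORY. Without high replicate 2 or medium replicate 3 it was 6, the calls of kl-2, Ppr-Y and ORY being lost, and without high replicate 3 it was 7, with kl-2 and ORY lost. Without high replicate 1 Pp1-Y2 was called too (edgeR adjusted p 0.00737).

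**Figure D3:**
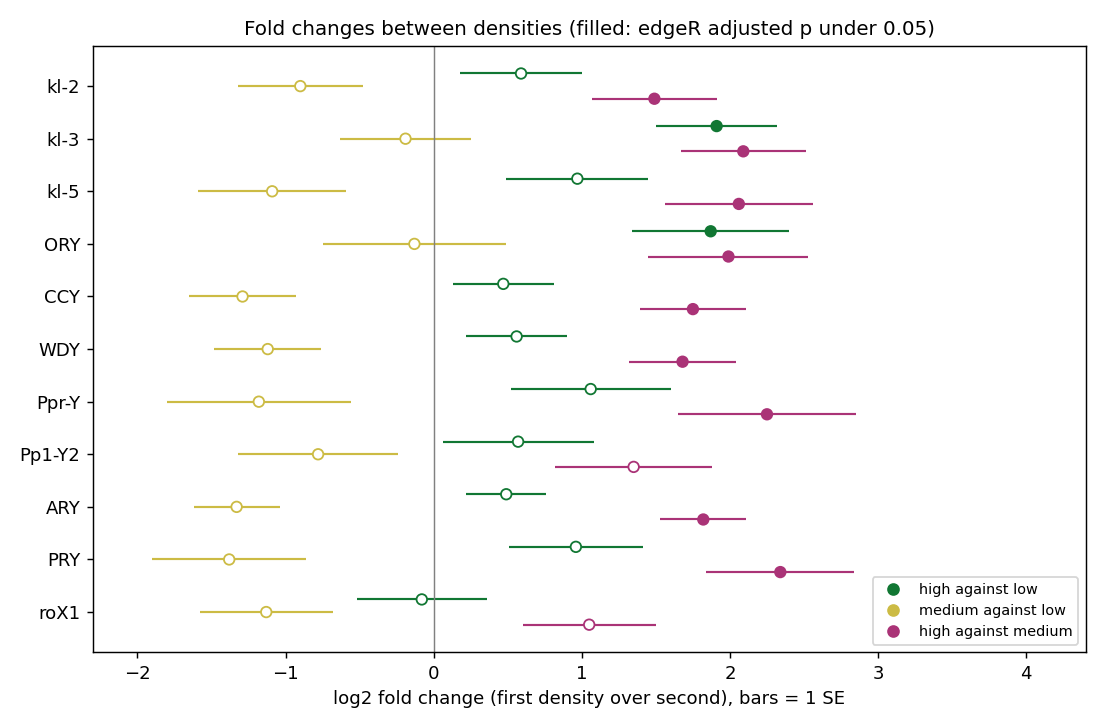
Log2 fold change with 1 standard error of each Y-linked gene and roX1 for high against low, medium against low and high against medium density, with filled points for an edgeR adjusted p under 0.05. High against medium is filled for 9 of the 10 genes, high against low for kl-3 and ORY, and medium against low for none.

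The joint edgeR test for any difference among the 3 densities called 8 of 10 members, where 33.6% of all genes were called. kl-2 (adjusted p 0.0585) and Pp1-Y2 (0.159) did not pass. The plot of fold changes shows the 3 pairs together: in this fit medium was below low for all 10 members, high was above low, and high against medium was the widest gap. The signs for medium against low, none of them called, changed for kl-3 and ORY when medium replicate 3 was left out. The count of 8 became 1 without high replicate 2, and 2 without medium replicate 1 or medium replicate 3.

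Because the pools held larvae of unstated sex, the members were next read against roX1 within each library, a ratio that does not depend on library size. Summed, the 10 genes had 3.8, 7.35 and 7.48 counts per 100 roX1 counts at low density, 7.1, 4.9 and 7.02 at medium density, and 8.3, 8.56 and 12 at high density. All 3 high pools were above all 6 others, and medium and low overlapped. The low value of low replicate 1 goes with its high roX1.

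In this ratio the densities were separate for kl-3. Per 1000 roX1 counts it had 1.21, 1.74 and 2.19 at low density, 3.14, 2.65 and 3.82 at medium density, and 4.57, 6.21 and 7.35 at high density. The ranges of the 3 densities were all separate, with means of 1.71 ± 0.49 at low, 3.2 ± 0.591 at medium and 6.05 ± 1.4 at high density (SD, n = 3 each). The mean CPM of kl-3 itself was not higher at medium (0.732) than at low density (0.838). That of roX1 was 243 at medium and 530 at low density. The nearest low and medium pools rest on 16 and 24 counts of kl-3.

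kl-5 had 11.8, 11.8 and 20.9 per 1000 roX1 counts at high density, against 4.67, 10.4 and 9.02 at low density, and Ppr-Y had 2.07, 2.59 and 4.34, against 1.07, 1.65 and 1.91. For both, the high pools were also above the medium ones, as they were for kl-3, CCY and PRY. The other 7 members overlapped between high and low density. The share of all genes with such a separation in the ratio to roX1 is not given here. The median over the 10 of the log2 ratio at high minus low density was 0.72, and it was 0.36 without low replicate 1, the pool with the most roX1.

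**Figure D4:**
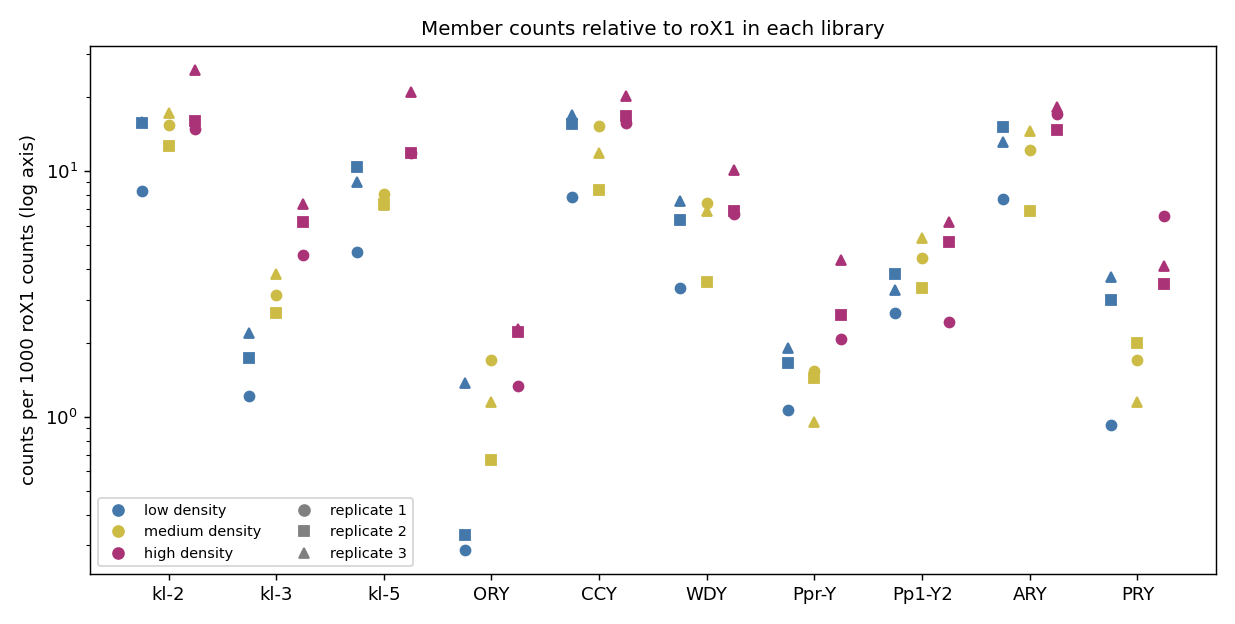
Counts of each Y-linked gene per 1000 roX1 counts in each library (log axis), coloured by density and shaped by replicate number. The ratio of kl-3 to roX1 climbs from low through medium to high density with no overlap, while the mean CPM of kl-3 itself is not higher at medium than at low density. For most other genes the densities overlap.

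With log2 CPM of roX1 as a further term in the edgeR model, kl-3 was the only member called between high and low density, at a log2 fold change of 1.88 ± 0.29 (adjusted p 0.00649), where 4.91% of all genes were called higher. ORY was at 1.84 ± 0.55 (edgeR adjusted p 0.0573). Between high and medium density no member was called, where 1.48% of all genes were called higher. The lowest adjusted p were 0.0518 for ARY (log2 fold change 1.31 ± 0.32) and 0.0847 for PRY (1.97 ± 0.62). At an unadjusted p under 0.05 there were 5 members, ARY, PRY, kl-3, CCY and WDY, all higher, as were 16.1% of all genes. In the joint test kl-3 was the member called (edgeR adjusted p 0.016), where 11.6% of all genes were.

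Scaling the libraries to their roX1 count, an alternative added after the data had been seen, left no member called in any pair. In that fit 0.931% of all genes were called higher at high than at low density, 0.318% higher at high than at medium density, and 0.00776% lower at medium than at low density. At an unadjusted p under 0.05 there were kl-3 and ORY for high against low (2.69% of all genes), PRY for high against medium (0.582%) and no member for medium against low (0.0388%). kl-3 had a log2 fold change of 1.85 ± 0.61 between high and low (edgeR adjusted p 0.105), and PRY one of 1.48 ± 0.64 between high and medium (0.0501). In the joint test kl-3 was called (edgeR adjusted p 0.0287) in this scaling, as were 58.6% of all genes.

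Pools of 1 density were also compared by their roX1 level. The slope of log2 CPM on that of roX1, with density in the edgeR model, was above 0 for all 10, the largest being 1.07 ± 0.36 for Ppr-Y, 0.94 ± 0.32 for Pp1-Y2 and 0.86 ± 0.30 for kl-5, and the smallest 0.30 ± 0.49 for ORY. None passed the threshold over all genes, with adjusted p between 0.154 (kl-3) and 0.799 (ORY). At an unadjusted p under 0.05 there were 7 members, where 15.1% of all genes had such a positive slope. Without low replicate 1, the pool with the most roX1, kl-2 and kl-5 passed. The share of all genes that passed in that fit is not given here. roX2, the second RNA of the complex, had a slope of 1.06 ± 0.06 (edgeR adjusted p 0.00146), the only gene called (0.00776% of those tested).

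Shares of single genes in the members' sum do not depend on library scaling. kl-3 took 3.19%, 2.36% and 2.93% of the summed counts of the 10 genes at low density, 4.43%, 5.41% and 5.45% at medium density, and 5.51%, 7.25% and 6.15% at high density. Those shares did not overlap between any densities. Counting error is wide, however: the Wilson 95% interval was 2.09% to 4.82% for the highest low pool, 2.64% to 7.52% for the lowest medium pool, and 4.09% to 7.57% for the lowest high pool.

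Shares of CCY and WDY were lower at high density, 18.4 ± 1.3% against 21.4 ± 1.01% at low density for CCY, and 8.17 ± 0.252% against 9.17 ± 0.767% for WDY (SD, n = 3 each), without overlap. kl-2 took 19.3 ± 1.98% at high and 24.1 ± 2.15% at medium density. Pp1-Y2 took 4.72 ± 1.6% at high and 6.88 ± 0.713% at medium density, both also without overlap. Counting error exceeded these gaps, and the Wilson intervals of the nearest pools overlapped in each of these genes. CCY had 17.7% to 23.9% in low replicate 1 and 17.1% to 22.1% in high replicate 2. WDY had 6.99% to 10.7% in low replicate 2 and 7.28% to 9.76% in high replicate 3. kl-2 had 17.4% to 26.8% in medium replicate 1 and 19.8% to 23.4% in high replicate 3. Pp1-Y2 had 3.96% to 9.6% in medium replicate 1 and 4.69% to 7.71% in high replicate 2. kl-5, the other outer-arm dynein, took 15.2 ± 1.98% at high and 12.8 ± 1.15% at low density, and these ranges did overlap. Shares were described with no test, and one gene's gain is the others' loss.

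Over the 9 libraries, log2 CPM of pairs of members correlated between 0.62 (ORY with Pp1-Y2) and 0.99 (kl-5 with Ppr-Y), with a median Pearson r of 0.87 over the 45 pairs. These libraries differ in density, depth and perhaps sex ratio, which all genes share, and the figures are a description. The r of a member with roX1 was lowest for ORY (0.40) and for kl-3 (0.62). By mean r with the 10 members, the nearest genes outside chromosome Y were CG34124, CG3611, CG43050, Dnali1 and CG32487, each at 0.93. They were chosen for their likeness to the members over these same libraries, so their differences between densities follow from the choice and are given as a description.

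Of these, Dnali1 is named for an axonemal dynein light intermediate chain. It averaged 17.4 ± 6.55 CPM at high and 5.9 ± 2.06 CPM at medium density (log2 fold change 1.56, edgeR adjusted p 0.011) and 11.3 ± 1.83 CPM at low density. The 5 genes had log2 fold changes between 1.56 and 1.9 for high against medium, all called. The calls of CG34124 and CG3611 were lost without medium replicate 1 (adjusted p 0.0538 and 0.0519). Between high and low density their log2 fold changes were 0.62 to 0.87, none of them called.

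Genes that act with the fertility genes, or in the same cells, were set beside them. None of the 57 genes in the 5 lists of dynein heavy chains, arm assembly factors, giant-gene factors, meiotic arrest genes and sperm genes was called between high and low density by edgeR, DESeq2 or limma voom, and none had an unadjusted p under 0.05 there. Over all 12883 genes tested, edgeR called 1961 between high and low density. The counts that follow are for high against medium density, where 21.3% of all genes were called higher.

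The 9 dynein heavy chains encoded outside chromosome Y had 4 higher and 1 lower at high than at medium density. Those higher were Dhc98D, which averaged 48.1 ± 22.1 CPM at high and 18.9 ± 6.29 CPM at medium density (log2 fold change 1.35, edgeR adjusted p 0.0185), Dhc16F, Dhc62B and Dhc36C, the last of which was named after its values were seen. The 1 lower was Dhc64C, the cytoplasmic dynein used in all cells, at -0.20 (edgeR adjusted p 0.0435). With single libraries left out, Dhc64C missed the threshold in 8 of 9 fits, where its adjusted p reached 0.146, and passed without high replicate 1. The 5 calls became 2 without medium replicate 1, medium replicate 3 or high replicate 2, and 3 without high replicate 3, while Dhc16F and Dhc62B kept theirs in all of these.

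Dynein arms are put together in the cytoplasm by assembly factors, and all 8 factors on that list were called higher at high than at medium density, with a median log2 fold change of 1.47. Among them CG5048, the fly Dnaaf6, averaged 60.2 ± 23.3 CPM at high and 19 ± 10.1 CPM at medium density, and tilB averaged 11 ± 2.97 CPM at high and 3.98 ± 1.1 CPM at medium density. The median between high and low density was 0.32. Without medium replicate 1 the 8 calls became 4, and that of CG5048 was lost (edgeR adjusted p 0.0548).

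Of the 4 factors needed for expression of the giant Y genes, 3 were higher at high than at medium density: blanks, an RNA-binding protein of spermatocyte nuclei (46.3 ± 9.44 CPM at high, 21.9 ± 8.77 CPM at medium, edgeR adjusted p 0.0313), bol, an RNA-binding protein of meiosis (145 ± 46 CPM at high, 56 ± 19.5 CPM at medium, edgeR adjusted p 0.00977), and maca (log2 fold change 1.21, edgeR adjusted p 0.0284), a gene named after its values were seen. heph, a splicing factor that many tissues use, had 535 ± 28 CPM at high and 536 ± 51.1 CPM at medium density (edgeR adjusted p 0.989). The call of bol held whichever pool was left out, and those of blanks and maca were lost without medium replicate 1, medium replicate 3, high replicate 2 or high replicate 3.

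The genes that switch on the spermatocyte programme, known as meiotic arrest genes, had 13 of 14 higher at high than at medium density, with a median of 1.35, beside 0.08 between high and low. The exception was mip40 (log2 fold change 0.22, edgeR adjusted p 0.146), and achi, the list's highest gene in mean CPM, was at 0.68 (0.00869). The 13 calls became 3 without medium replicate 1, 8 without medium replicate 3 and 5 without high replicate 2. tomb, a subunit of the testis meiotic arrest complex, averaged 3.25 ± 0.561 CPM at high and 0.846 ± 0.238 CPM at medium density (edgeR adjusted p 0.00375), and sa, a testis form of a general transcription factor subunit, averaged 9.11 ± 2.18 CPM at high and 3.49 ± 1.05 CPM at medium density. All 22 genes of sperm structure and differentiation were higher at high than at medium density, with a median of 1.56, beside 0.48 between high and low, and 14 of them were without medium replicate 1. ProtB, a sperm protamine, had a log2 fold change of 2.0 between high and medium (edgeR adjusted p 0.0092), and S-Lap1, a leucyl aminopeptidase of sperm mitochondria, averaged 386 ± 144 CPM at high and 135 ± 52.3 CPM at medium density.

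Summed, the sperm genes spanned 1285 to 1704 CPM at low, 427 to 971 CPM at medium and 1197 to 2666 CPM at high density. For high against low, the fold changes of kl-3 and ORY were above every gene in both of those lists, whose highest were 0.40 and 0.79 on the log2 scale. Whether kl-3 or ORY differs from those genes was not tested. Over these lists and the further marker lists, calls in the 3 pairs came to 84, and to 41 without medium replicate 1 and 46 without high replicate 2, the changes coming mostly from high against medium density.

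**Figure D5:**
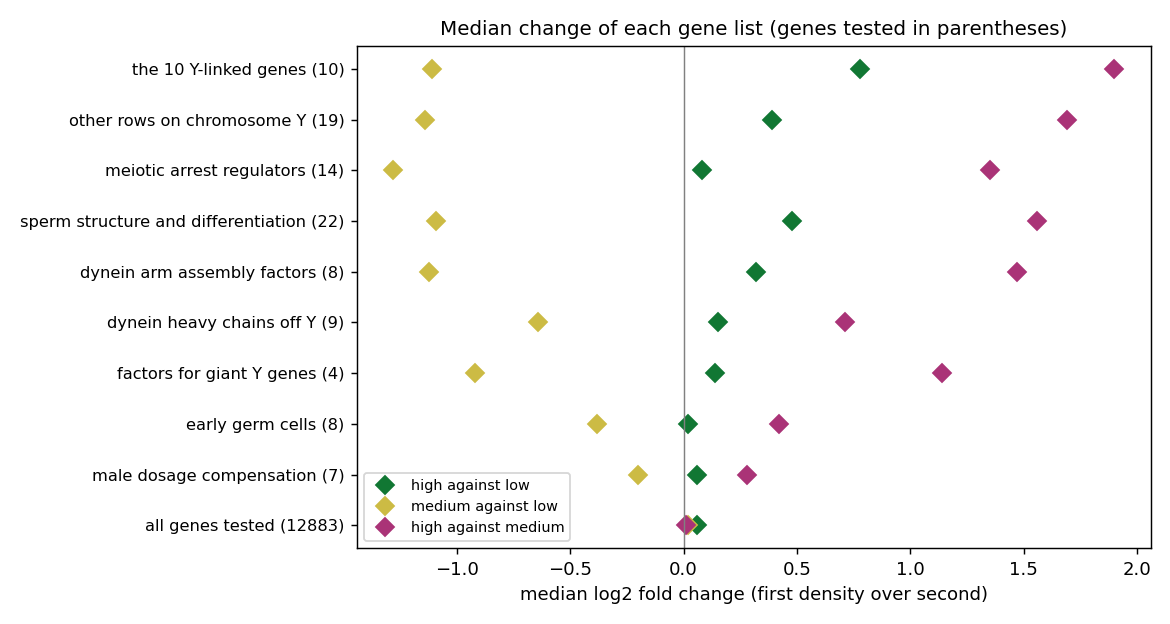
Median log2 fold change of the 10 Y-linked genes, of other gene lists and of all genes tested, for each pair of densities. Of the lists plotted, the Y-linked genes have the highest median between high and low (0.78) and between high and medium density (1.9). The meiotic arrest and sperm lists lie at 0.08 and 0.48 for high against low and at 1.35 and 1.56 for high against medium. Body wall muscle and midgut, not plotted, have a higher median than the Y-linked genes for high against low, 0.85 each. Stellate, not plotted and with 1 gene tested, lies above the Y-linked genes for high against medium.

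Of the 103 other rows placed on chromosome Y, 20 were at 0 in all libraries and 19 passed the filter. At high against medium density 13 of the 19 were higher, where 21.3% of all genes were, and none lower, with a median of 1.69. None was called between high and low density, by edgeR, by DESeq2 or at an unadjusted p under 0.05, where the median was 0.39. The 13 became 5 without medium replicate 1, 7 without medium replicate 3 and 8 without high replicate 2. FDY, a gene copied to the Y from an autosome, averaged 8.38 ± 1.55 CPM at high and 4.53 ± 0.663 CPM at medium density (log2 fold change 0.88, edgeR adjusted p 0.0108) and 7.41 ± 1.14 CPM at low density. Mst77Y-4, from a family of near-identical copies of a sperm chromatin gene, averaged 5.15 ± 2.09 CPM at high and 1.84 ± 0.743 CPM at medium density; read pairs shared among such copies were split by the authors' counting, so these levels are uncertain.

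Markers of other cells of the gonad were read in the same way. Of 8 early germ cell genes, bgcn, a partner of the differentiation factor bam, was higher at high than at medium density (12.8 ± 4.22 CPM at high, 5.41 ± 2.27 CPM at medium, edgeR adjusted p 0.0221), piwi was lower (3.58 ± 0.606 CPM at high, 5.38 ± 0.79 CPM at medium, edgeR adjusted p 0.0351), and 6 were not called. Both calls were lost without medium replicate 1, medium replicate 3, high replicate 2 or high replicate 3, and that of piwi also without any of the low replicates (edgeR adjusted p up to 0.121). The 4 genes listed for gonadal somatic cells were not called in any pair by edgeR or DESeq2, and 1 had an unadjusted p under 0.05, for medium against low. Their summed level was 39.3 to 42 CPM at low, 43 to 44.5 CPM at medium and 40.3 to 44.6 CPM at high density. Most of it was eya (means of 22.7, 22.9 and 23.6 CPM) and Wnt4 (13.1, 15.9 and 14.3 CPM). tj had 1.87, 2.75 and 2.04 CPM. Which cells of a whole larva made this RNA was not tested, so the sum cannot be read as the level of the gonadal soma. Yp3, a yolk protein gene of females and the only gene of its list to pass the filter, had means of 0.484 ± 0.285 CPM at low density, 2.45 ± 1.2 CPM at medium density and 0.481 ± 0.243 CPM at high density, and was lower at high than at medium density (edgeR adjusted p 0.0142, and 0.0529 without high replicate 2).

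Of the 7 genes of male dosage compensation, mof was called higher at high than at medium density (log2 fold change 0.39, edgeR adjusted p 0.0323) and no other was called in any pair. Its call was lost without low replicate 2, medium replicate 1 or 3, or high replicate 1 or 2. roX2 had 37.1, 24.6 and 15.1 CPM at low density, 8.89, 20.1 and 6.14 CPM at medium density, and 15.2, 26.2 and 25.5 CPM at high density. The order of its pools was that of roX1 at every density, with low replicate 1 again highest. The part of the sex of the pooled larvae in the differences of the Y-linked genes was tested no further than by roX1.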

How the data were processed

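RNA of 9 pools of 10 whole larvae was sequenced by the authors as stranded poly(A)-selected libraries, per the labels' protocols. Per the submitters' processing notes, the tools named are Trim Galore 0.6.4, HISAT2 2.1.0, SAMtools 1.9, featureCounts 1.6.2, DESeq2 1.26.0 and R 3.6.1. The deposited values are expected counts, not normalized: per the file headers, the authors ran featureCounts 1.6.2 over exons by gene of the RefSeq Release 6 annotation, reverse-stranded, and split read pairs that map to several places into fractions. Fractions were present in 5 members (kl-2, kl-3, Ppr-Y, CCY and WDY) and absent in the other 5. They touch genes with near-identical copies most.

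After rounding to whole numbers, the tests were run in edgeR 4.0.16 (R 4.3.3) with filterByExpr, TMM factors, 1 coefficient per density over all 9 libraries, the quasi-likelihood F-test, and Benjamini-Hochberg adjustment over the 12883 genes tested at a threshold of 0.05. A standard error is the size of the log2 fold change over the square root of F. CPM are TMM-scaled. Intervals of counts and shares cover counting error only. The tests were tried on simulated counts. Alternatives used DESeq2 1.42.0, limma 3.58.1 (voom), other scalings and filters, subsets of libraries, and roX1 as a covariate.

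The members and the gene lists were chosen with earlier results of these data known. All members were named, and from each list at most 4 genes: the 2 highest in mean CPM and the 2 of smallest joint p. The nearest genes were the 5 outside chromosome Y with the highest mean Pearson r of log2 CPM with the members (prior count 2).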

Additional observations from a re-analysis of the deposited data

How the results depend on the processing

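No called member value changed sign under the alternatives run. Between medium and low density, where none was called, the log2 fold change of kl-3 (-0.19) was 0.02 without medium replicate 3, 0.66 with roX1 as a covariate and 0.91 with libraries scaled to roX1. That of ORY (-0.13) was 0.39 without low replicate 3, 0.12 without medium replicate 3, 0.20 with the covariate and 0.89 with that scaling, which also put Pp1-Y2 (-0.78) at 0.40, kl-2 (-0.90) at 0.18 and WDY (-1.12) at 0.03. Pp1-Y2 was at 0.31 with the covariate. For single genes, 596 results held their side of the threshold under an alternative, 52 lost a call and 11 gained one. Calls of members between high and low (2 in the reported fit) came to 1 with limma voom, no filter, only the 2 groups compared or roX1 as a covariate. With at least 10 counts in every library they came to 1 of 7 tested, and ORY was not tested. With only genes of whole counts they came to 0 of 5 tested. There kl-3 was not tested and ORY had an edgeR adjusted p of 0.0546. With libraries scaled to roX1 they came to 0. Leaving out a library gave 0 to 2. Between medium and low (0), DESeq2 gave 3 and left-out libraries 0 to 2. Between high and medium (9), roX1 as a covariate and as a scaling both gave 0, whole counts gave 4 of 5, and left-out libraries 5 to 10. In the joint test (8), the count was 5 of 7 tested with at least 10 counts in every library and 4 of 5 tested with whole counts. In both settings the members called in the reported fit and still tested kept their call. The count was 1 with either roX1 alternative, and 1 to 10 with libraries left out.

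Over all genes, calls between high and low (1961) were 978 with the 2 groups alone, 1196 with whole counts, where fewer genes were tested, and 807 to 2755 with libraries left out. Between medium and low (0), they were 1575 with DESeq2, 7 with the 2 groups alone and 0 to 1094 with libraries left out. Between high and medium (5102), they were 3095 with the 2 groups alone, 902 with roX1 as a covariate and 2675 to 5447 with libraries left out, and in the joint test (4330), 1492 with the covariate and 990 to 4841 with libraries left out. roX1 was called in no pair, in 1 with DESeq2 and in up to 2 with libraries left out (0 to 2). Calls in the comparison lists (84) were 136 with DESeq2, 48 with the 2 groups alone, 11 with the covariate, 42 with whole counts and 41 to 126 with libraries left out. The median log2 ratio of the members to roX1 at high minus low density (0.72) lay between 0.36 and 0.89, and calls of the slope on roX1 (0) between 0 and 2. The causes were not tested.

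Whether the replicate numbers pair the pools is not known. Deviations of same-numbered pools from their group means correlated between -0.34 and 0.28, and those of differently numbered pools between -0.54 and 0.51. With so few pools these values cannot exclude a shared culture or batch. With replicate number as a block, 1 member was called between high and low, 0 between medium and low, 9 between high and medium and 4 in the joint test.

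Scaling moved the median log2 fold change over the genes tested by more than 0.1: for high against low it was 0.06 with TMM and 0.21 by library totals, and for high against medium 0.01 and 0.26. The members' signs were alike in both, and roX1 between high and low, not called, was at -0.08 with TMM and 0.09 by totals. ORY, PRY and Ppr-Y had a medium pool at or under 3 counts. How far depth and the spread between pools limit each gene was not tested.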

Other observations

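Stellate is a repeat family of the X chromosome that is silenced in the testis by small RNAs from Suppressor of Stellate, a repeat family of the Y. Both were mostly below the filter. Of 14 Stellate rows, 1 was tested, Ste12DOR, with 1.71 ± 0.109 CPM at low density, 0.391 ± 0.304 CPM at medium density and 1.63 ± 1.56 CPM at high density (mean ± SD of 3 pools). It was called in no pair by edgeR. Of 34 Suppressor of Stellate rows, 1 was tested, CR42418, which averaged 0.868 ± 0.346 CPM at high and 0.279 ± 0.147 CPM at medium density (edgeR adjusted p 0.0289), a call lost without medium replicate 1, medium replicate 3, high replicate 2 or high replicate 3. Both families are near-identical copies, so their levels are uncertain.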
